A study of Mus musculus with 54 samples.

Results

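The genes described here are 10 mouse genes of the ATF4 and unfolded-protein stress pathways: Atf4, Ddit3, Trib3, Chac1, Asns, Atf3, Hspa5, Xbp1, Herpud1, and Eif2ak3. They were chosen by name and found through their NCBI gene numbers, and they are 10 of the 19653 genes listed in any of 27 tables of poly-A RNA sequencing. All 10 were listed in all 27 tables. The cells were H2K myogenic progenitors, which are conditionally immortalized mouse muscle precursors that proliferate with γ-interferon and differentiate in low serum. There were 6 lines: wildtype; EMD-/y, which lacks emerin, an inner nuclear membrane protein; and EMD-/y cells transduced with a lentivirus for wildtype emerin (+EMD) or for emerin with the S54F, Δ95–99, or Q133H change that causes Emery-Dreifuss muscular dystrophy. Each line was sampled 0, 24, and 48 h after the switch to differentiation medium (day 0, 1, and 2), which gives 18 groups with 3 labelled replicates each, or 54 samples. By the authors' methods the switch also raised the temperature, lowered CO2, and left out γ-interferon, so steps from day 0 include these changes. All 5 lines other than wildtype lack the endogenous emerin gene product, and each transduced line is 1 stable line selected with puromycin. The puromycin concentration at selection was the same for S54F and Δ95–99 and differed in Q133H and in +EMD. The S54F, Δ95–99, and Q133H lines were also kept in puromycin during differentiation and plated more densely than wildtype and EMD-/y, while for +EMD the sources used here give neither point. In proliferating cells, the authors report more emerin protein in Q133H than in wildtype, and levels similar to wildtype in the other transduced lines. Introduced emerin, its amount, line, puromycin, and plating density therefore cannot be told apart when a transduced line is compared with wildtype or EMD-/y. A vector-only line was not analysed here.

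From day 1 to day 2 most of the 10 genes went up in most lines. At least 4 of 10 at least doubled in wildtype, EMD-/y, +EMD, S54F, and Δ95–99, where 7.81% to 11.2% of all genes did. In Q133H, 2 of 10 did, beside 6.55% of all genes. When each value was divided by the sum of its group, the count fell from 8 to 4 in S54F and from 4 to 3 in Δ95–99. The highest medians over the lines were those of Herpud1, Asns, Chac1, and Trib3, while Atf4 mRNA itself went up by log2 ratios of only 0.31 to 0.65. In Q133H on day 2, 5 of the 10 were past 2-fold from wildtype, as were 33.9% of all genes. Of the 10, 2 were higher and 3 lower, beside 18.2% higher and 15.6% lower of all genes. Divided by the sum of each group, 3 were higher and 3 lower, beside 23% and 12.7% of all genes. Ddit3 and Atf3 reached 2.94 and 3.55 times the wildtype value, and Asns, Chac1, and Herpud1 were 4.3, 4.54, and 4.03 times lower. In EMD-/y and S54F the count of the 10 past 2-fold from wildtype was near the share of all genes or under it on each day. These are single values per group with no error.

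Each of 15 tables set 1 line against wildtype on the same day, and each of 12 tables set 2 consecutive days of 1 line against each other. A table gave 1 normalized value per gene and group, pooled over the replicates, so no spread between replicates could be computed and no test was made. A ratio was called past 2-fold when the larger of the 2 values in a table was at least 2 times the smaller one, and ratios are given as log2. For each table the share of all genes past 2-fold, among genes with a larger value of at least 10, is given beside the count of these 10 genes. Where levels are compared across tables, the tables were brought to a common scale, and the levels of 1 gene in 1 group then differed between tables by at most 1.09 times. The values of a group summed to between 16719491 and 21128040 per table. Endogenous Emd, which encodes emerin, was between 987 and 1962 in the wildtype groups and between 0.141 and 3.52 in all others, so the groups labelled wildtype were the only ones with more than trace levels, and the introduced emerin was not seen under this gene. In this bulk RNA, fewer cells of a type and less RNA per cell cannot be told apart.

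The 10 genes belong to connected stress pathways. Eif2ak3 encodes PERK, a kinase in the endoplasmic reticulum (ER) membrane that phosphorylates the translation factor eIF2α when unfolded proteins gather in the ER, which slows most translation but favours that of Atf4 mRNA. ATF4 is a transcription factor that activates genes of amino acid synthesis and transport, among them Asns, and stress regulators such as Ddit3 (CHOP), Atf3, Trib3, and Chac1. The same step is reached from amino acid shortage, heme shortage, and double-stranded RNA through other eIF2α kinases, so this arm is also called the integrated stress response. The other arms run through IRE1, which splices Xbp1 mRNA, and through ATF6, and they raise chaperones such as Hspa5 (BiP) and degradation components such as Herpud1. Secretory load and the unfolded-protein response are known to change while myoblasts differentiate. ATF4 protein, eIF2α phosphorylation, and Xbp1 splicing were not measured in these tables.

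Short motifs known for these pathways were looked for on both strands in RefSeq promoters of build GRCm38.p6, 300 bases long (250 before to 50 after the start). All 10 genes matched 1 promoter each. The core of the C/EBP-ATF response element, TGATGNAA, was found in 5 of 10 promoters (Asns, Atf3, Chac1, Herpud1, and Trib3) and in 3.97% of 32817 promoters. The ER stress element, written as CCAAT and CCACG 9 bases apart, was found in 1 of 10 promoters (Hspa5) and in 0.119% of all. Other forms or spacings of this element were not looked for and are not marked, so promoters without a match may still hold them. The unfolded-protein and cyclic AMP response motifs TGACGTGG and TGACGTCA, which share their first 6 letters, were in 0 of 10 promoters, and in 0.676% and 1.79% of all. These are matches of letters only and were not tested as binding sites. The bases before the start are shown for the 5 promoters with a match there, since they include genes that moved together (Asns and Chac1) and apart (Asns and Atf3). Asns is at chr6:7693210-7693459 on the minus strand, Chac1 at chr2:119350992-119351241 (plus), Atf3 at chr1:191183334-191183583 (minus), Herpud1 at chr8:94386179-94386428 (plus), and Hspa5 at chr2:34771840-34772089 (plus). Each is read 5′ to 3′ along the gene, and the capitals mark the motifs, which in Chac1, Atf3, and Herpud1 lie on the opposite strand and so read TTGCATCA. The core begins 23 bases before the start in Asns, 193 in Chac1, 110 in Atf3, and 112 in Herpud1, and the Hspa5 element begins 65 bases before it. In Trib3 the core lay after the start.
Asns: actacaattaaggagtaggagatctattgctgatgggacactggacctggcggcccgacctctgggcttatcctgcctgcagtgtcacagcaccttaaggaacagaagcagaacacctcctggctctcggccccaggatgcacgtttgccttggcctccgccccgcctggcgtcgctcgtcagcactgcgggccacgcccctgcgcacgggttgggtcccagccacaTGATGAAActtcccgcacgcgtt
Chac1: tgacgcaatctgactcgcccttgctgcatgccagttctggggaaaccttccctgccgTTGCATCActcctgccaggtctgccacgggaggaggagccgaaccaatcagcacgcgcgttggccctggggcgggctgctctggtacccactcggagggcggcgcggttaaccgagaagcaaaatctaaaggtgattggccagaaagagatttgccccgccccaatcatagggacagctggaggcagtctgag
Atf3: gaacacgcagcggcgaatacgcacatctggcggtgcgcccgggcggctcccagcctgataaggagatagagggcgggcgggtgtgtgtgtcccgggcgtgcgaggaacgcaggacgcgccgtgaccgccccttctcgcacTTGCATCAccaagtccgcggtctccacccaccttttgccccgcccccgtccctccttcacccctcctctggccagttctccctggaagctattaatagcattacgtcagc
Herpud1: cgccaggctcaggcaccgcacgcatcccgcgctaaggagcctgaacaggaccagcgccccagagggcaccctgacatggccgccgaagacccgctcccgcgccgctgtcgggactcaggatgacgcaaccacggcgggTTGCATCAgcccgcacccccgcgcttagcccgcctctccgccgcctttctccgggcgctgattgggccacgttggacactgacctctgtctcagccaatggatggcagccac
Hspa5: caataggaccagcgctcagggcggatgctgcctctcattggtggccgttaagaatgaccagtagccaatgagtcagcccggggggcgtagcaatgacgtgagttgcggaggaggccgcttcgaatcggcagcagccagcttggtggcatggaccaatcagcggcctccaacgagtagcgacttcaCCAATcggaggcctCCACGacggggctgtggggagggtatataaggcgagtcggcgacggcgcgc

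**Figure D1:**
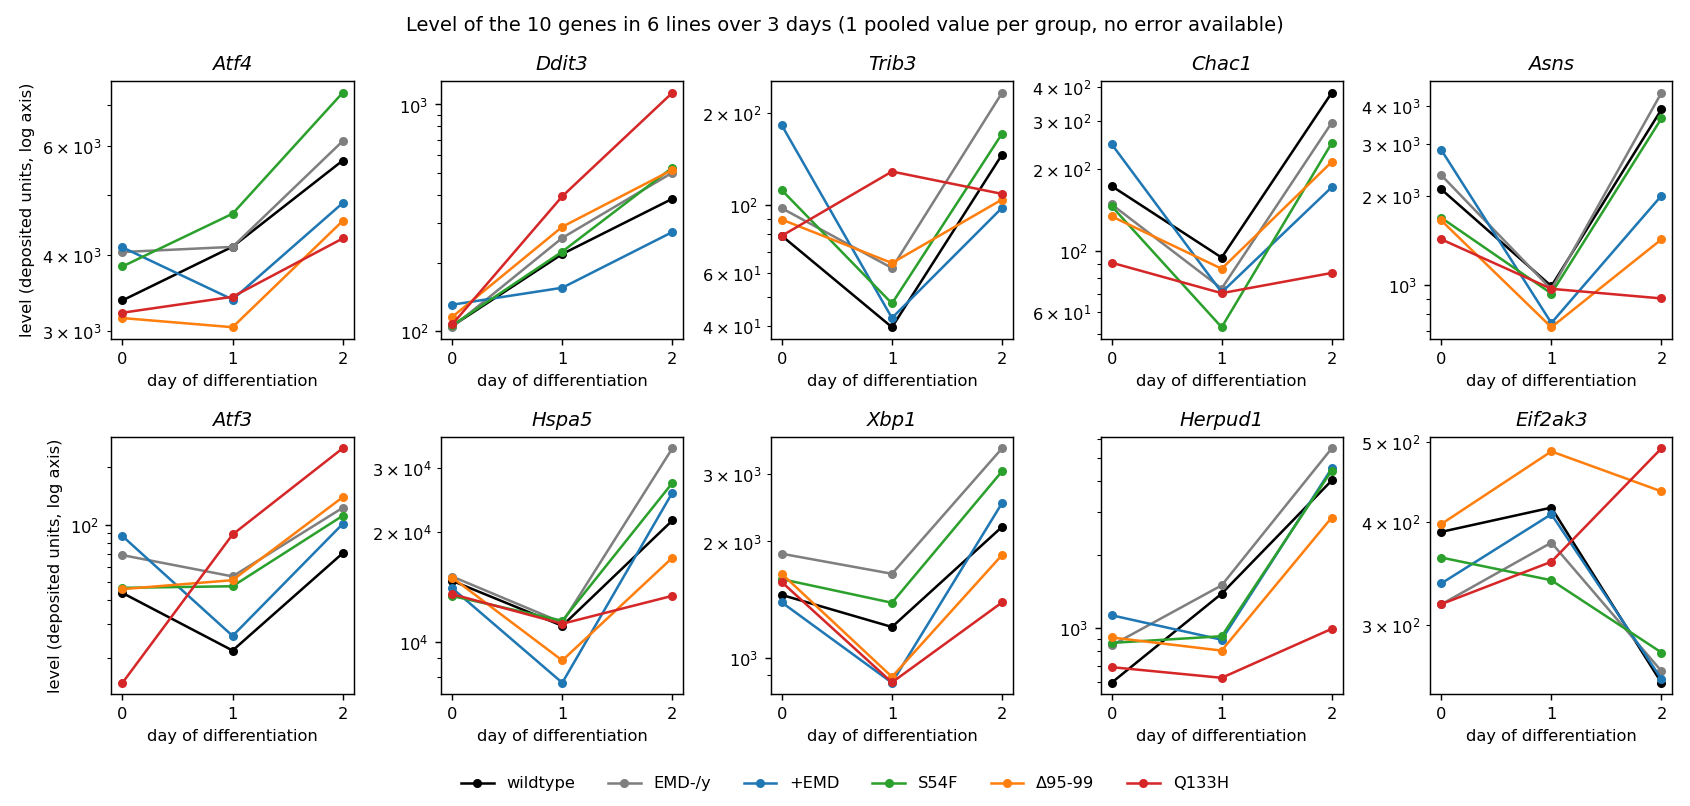
Level of each gene (vertical, deposited units on the common scale, log axis) on day 0, 1, and 2 (horizontal) in the 6 lines, 1 point per group and no error available. Q133H (red) is highest for Ddit3 and Atf3 and lowest for Asns, Chac1, and Herpud1 on day 2, and it is the only line whose Eif2ak3 is higher on day 2 than on day 1.

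Atf4 (chr15:80255184-80257545, GRCm38 as for all genes here), which encodes the transcription factor at the centre of the response, moved the least of the factors. On day 0 its level was 3369 in wildtype, 4037 in EMD-/y, 4108 in +EMD, 3826 in S54F, 3153 in Δ95–99, and 3216 in Q133H. It was 4119 in wildtype, 4116 in EMD-/y, 3379.6 in +EMD, 4660.4 in S54F, 3046 in Δ95–99, and 3414 in Q133H on day 1. By day 2 the level was 5687 in wildtype, 6116 in EMD-/y, 4849.8 in +EMD, 7331 in S54F, 4536 in Δ95–99, and 4247 in Q133H. The groups spanned 2.41 times, and Atf4 was past 2-fold in 0 of 15 tables against wildtype and in 0 of 12 between days. All 6 lines had more Atf4 on day 2 than on day 1, with log2 ratios from 0.31 in Q133H to 0.65 in S54F. Against wildtype on day 2, S54F was at the upper end (6410.4 against 4979.6 in wildtype) and Q133H at the lower end (4129 against 5513 in wildtype), and the 2 log2 ratios were 0.36 and -0.42.

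Eif2ak3 (chr6:70844484-70905241), the PERK kinase gene, was the flattest of the 10, with 1.92 times between its lowest and highest group. Day 0 gave 389 in wildtype, 318 in EMD-/y, 337 in +EMD, 362 in S54F, 398 in Δ95–99, and 318 in Q133H. Day 1 gave 416 in wildtype, 378 in EMD-/y, 409 in +EMD, 340.1 in S54F, 487 in Δ95–99, and 358 in Q133H. On day 2 the values parted, at 256 in wildtype, 264 in EMD-/y, 258 in +EMD, 278 in S54F, 436 in Δ95–99, and 491 in Q133H. Wildtype, EMD-/y, +EMD, and S54F were lower on day 2 than on day 1, by log2 ratios of -0.70, -0.52, -0.66, and -0.29. Δ95–99 moved little (-0.15), and Q133H went the other way, from 397 to 541 (0.45). Against wildtype on day 2, Q133H had 478 against 248 in wildtype (log2 ratio 0.95), and Δ95–99 had 411 against 242 in wildtype (0.76). Neither was past 2-fold as deposited, but Q133H was when scaled to the sum of each group.

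Ddit3 (chr10:127290793-127296291) encodes CHOP, a factor tied to cell death under lasting stress. The 6 lines began close together on day 0, at 106 in wildtype, 104 in EMD-/y, 131 in +EMD, 106 in S54F, 116 in Δ95–99, and 107 in Q133H. They were spread on day 1, at 219 in wildtype, 258 in EMD-/y, 156 in +EMD, 225 in S54F, 289 in Δ95–99, and 394 in Q133H. On day 2 the levels were 384 in wildtype, 501 in EMD-/y, 274 in +EMD, 527 in S54F, 515 in Δ95–99, and 1126 in Q133H. Q133H lay above every other line on both later days. The step from day 0 to day 1 was past 2-fold upward in 5 of 6 lines, all but +EMD, where the value went from 137 to 162 (log2 ratio 0.24). The next step was past 2-fold in S54F, from 219 to 512 (1.23), and in Q133H, from 442 to 1239.6 (1.49), and between 0.80 and 0.95 in the other 4 lines. Against wildtype it was past 2-fold in 1 of 15 tables, Q133H on day 2, with 1098 against 374 in wildtype (1.55). Opposite-strand overlaps are annotated between Ddit3 and the methionyl-tRNA synthetase gene Mars1 (68 bases) and the transcript Gm4189 (15 bases). The counting strand is not given in the sources used here. Mars1 had 1073 in Q133H against 2101 in wildtype on day 2 (-0.97). The part of these overlaps in the Ddit3 values was not tested.

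Atf3 (chr1:191170296-191183333), a stress-induced transcription factor of the same bZIP class, had the widest range of the 10, with 16.96 times between Q133H on day 0 and Q133H on day 2. Its day 0 levels were 43.8 in wildtype, 69.2 in EMD-/y, 87 in +EMD, 46.6 in S54F, 45.9 in Δ95–99, and 14.8 in Q133H. Day 1 brought 21.9 in wildtype, 53.5 in EMD-/y, 26.1 in +EMD, 47.5 in S54F, 51.1 in Δ95–99, and 88.7 in Q133H. Day 2 brought 70.8 in wildtype, 122 in EMD-/y, 101 in +EMD, 111 in S54F, 139 in Δ95–99, and 251 in Q133H. Q133H was the lowest line on day 0 and the highest on days 1 and 2, and wildtype was the lowest on days 1 and 2. Atf3 was above wildtype in 14 of 15 tables, and past 2-fold upward in 5 of them, 4 on day 1 with log2 ratios of 1.11 in S54F, 1.19 in EMD-/y, 1.20 in Δ95–99, and 1.99 in Q133H, and 1 on day 2 in Q133H (1.83). The exception was Q133H on day 0, with 14.8 against 44.6 in wildtype (-1.59). These comparisons of 1 day share the wildtype value, which for Atf3 on day 1 was low, between 21.8 and 23.0 over the 5 tables. At such low levels the 2 deposited values of a table lean slightly toward each other, and with 10 added to both values only the Q133H call of the 4 on day 1 was left. From day 0 to day 1 it fell past 2-fold in wildtype, from 43.2 to 21.5 (2.01-fold), and +EMD, from 90.8 to 27.5 (-1.72), while in Q133H it went from 16.9 to 95 (2.49). From day 1 to day 2 it was past 2-fold upward in 6 of 6 lines, by 1.16 to 1.93.

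Trib3 (chr2:152337425-152344060) encodes a pseudokinase that ATF4 and CHOP induce and that dampens them in turn. Levels on day 0 were 79.1 in wildtype, 97.4 in EMD-/y, 182 in +EMD, 112 in S54F, 89.4 in Δ95–99, and 79.2 in Q133H. Day 1 levels were 39.7 in wildtype, 62.1 in EMD-/y, 42.6 in +EMD, 47.5 in S54F, 64.5 in Δ95–99, and 128 in Q133H. Day 2 levels were 146 in wildtype, 233 in EMD-/y, 97.8 in +EMD, 171 in S54F, 104 in Δ95–99, and 109 in Q133H. Every line but Q133H dipped on day 1, and Q133H peaked there. +EMD stood out on day 0 with 184 against 83.4 in wildtype (log2 ratio 1.14), and Q133H on day 1 with 135 against 42.2 in wildtype (1.67). These were the 2 of 15 tables past 2-fold for this gene. The step from day 1 to day 2 was past 2-fold upward in wildtype, EMD-/y, +EMD, and S54F (1.22 to 1.88), was 0.68 in Δ95–99, and was -0.25 in Q133H.

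Asns (chr6:7675165-7693209), the asparagine synthetase gene, and Chac1, whose product breaks down glutathione, followed each other, with r = 0.915 over the 18 groups. Asns on day 0 was 2105 in wildtype, 2349 in EMD-/y, 2856 in +EMD, 1688 in S54F, 1654 in Δ95–99, and 1429 in Q133H. It dropped to 994 in wildtype, 969 in EMD-/y, 747 in +EMD, 939 in S54F, 723 in Δ95–99, and 973 in Q133H on day 1. On day 2 it was 3907 in wildtype, 4447 in EMD-/y, 2003 in +EMD, 3644 in S54F, 1428 in Δ95–99, and 904 in Q133H. Wildtype, EMD-/y, and S54F thus climbed to between 3644 and 4447, +EMD and Δ95–99 reached 2003 and 1428, and Q133H was no higher than on day 1. The log2 ratio from day 1 to day 2 was 1.97 in wildtype, 2.18 in EMD-/y, 1.43 in +EMD, 1.96 in S54F, 0.98 in Δ95–99, and -0.11 in Q133H. Against wildtype on day 2, Δ95–99 had 1351 against 3701 in wildtype (-1.45) and Q133H had 881 against 3782 in wildtype (-2.10), both past 2-fold, and +EMD was just short of it with 1783 against 3482 in wildtype (-0.97).

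Chac1 (chr2:119351242-119354326) was lower than wildtype in 14 of 15 tables. Its level on day 0 was 173 in wildtype, 149 in EMD-/y, 247 in +EMD, 146 in S54F, 134 in Δ95–99, and 90.9 in Q133H. On day 1 the values were 94.9 in wildtype, 73.2 in EMD-/y, 70.9 in +EMD, 52.8 in S54F, 86.4 in Δ95–99, and 70.4 in Q133H. They reached 380.4 in wildtype, 296 in EMD-/y, 172 in +EMD, 249 in S54F, 212 in Δ95–99, and 83.4 in Q133H on day 2. Wildtype had the highest and Q133H the lowest level on day 2. The 2 tables past 2-fold were +EMD on day 2, with 153 against 339 in wildtype (log2 ratio -1.15), and Q133H on day 2, with 81.3 against 369 in wildtype (-2.18). Between day 1 and day 2, Chac1 was past 2-fold upward in 5 of 6 lines (1.29 to 2.23), and in Q133H it went from 77.8 to 91.8 (0.24).

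Hspa5 (chr2:34772090-34776529), the gene of the ER chaperone BiP, was the most abundant of the 10 per length, with a median over groups of 5426 per kilobase, against 2361 for Atf4 and 31.0 for Atf3. Hspa5 levels on day 0 were 14708 in wildtype, 15111 in EMD-/y, 14036 in +EMD, 13359 in S54F, 15011 in Δ95–99, and 13517 in Q133H. The day 1 levels were 11062 in wildtype, 11285 in EMD-/y, 7715 in +EMD, 11423 in S54F, 8885 in Δ95–99, and 11207 in Q133H. Those of day 2 were 21544 in wildtype, 34016 in EMD-/y, 25692 in +EMD, 27322 in S54F, 17020.5 in Δ95–99, and 13373 in Q133H. All lines were lower on day 1 than on day 0, and all were higher again on day 2. The rise from day 1 was past 2-fold in EMD-/y (1.58), +EMD (1.74), and S54F (1.26), just short of it in wildtype (0.96) and Δ95–99 (0.94), and 0.25 in Q133H. Against wildtype on day 2, EMD-/y was higher, with 29039 against 18405 in wildtype (0.66), and Q133H was lower, with 12998 against 20879.9 in wildtype (-0.68), neither past 2-fold.

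Xbp1 (chr11:5520641-5525993), the transcription factor gene whose mRNA IRE1 splices, tracked Hspa5 over the 18 groups (r = 0.943). It ranged from 861 in +EMD on day 1 to 3488 in EMD-/y on day 2, and was past 2-fold in 0 of 15 tables against wildtype. Its step from day 1 to day 2 was past 2-fold in EMD-/y (1.07), +EMD (1.55), S54F (1.13), and Δ95–99 (1.05), and was 0.86 in wildtype and 0.68 in Q133H. Total Xbp1 mRNA does not show how much of it was spliced.

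Herpud1 (chr8:94386429-94395371) encodes an ER membrane protein that helps in the degradation of misfolded proteins. On day 0 it stood at 595 in wildtype, 847 in EMD-/y, 1127 in +EMD, 868 in S54F, 913 in Δ95–99, and 689.8 in Q133H. On day 1 it stood at 1383 in wildtype, 1496 in EMD-/y, 894 in +EMD, 924 in S54F, 807 in Δ95–99, and 624 in Q133H. Day 2 values were 4034 in wildtype, 5469.7 in EMD-/y, 4526 in +EMD, 4433 in S54F, 2842 in Δ95–99, and 991 in Q133H. Wildtype was the lowest line on day 0, and Q133H was the lowest on days 1 and 2. Wildtype alone was past 2-fold from day 0 to day 1, from 595 to 1378 (log2 ratio 1.21). Over the second day Herpud1 was past 2-fold upward in 5 of 6 lines (1.54 to 2.34), and it went from 694 to 1087 in Q133H (0.65). Against wildtype, Q133H was past 2-fold downward on day 1, with 651 against 1458 in wildtype (-1.16), and on day 2, with 969.6 against 3905 in wildtype (-2.01). Annotated RNAs on the opposite strand overlap Herpud1 by 535 bases, Eif2ak3 by 2449, and Atf3 by 108, and reads from them cannot be told apart from those of the genes without strand. The snoRNA Gm23346 shares 136 bases with Eif2ak3 on the same strand, where strand would not separate them. No transcript of another gene was at least 97% identical to one of the 10 over 200 bases.

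**Figure D2:**
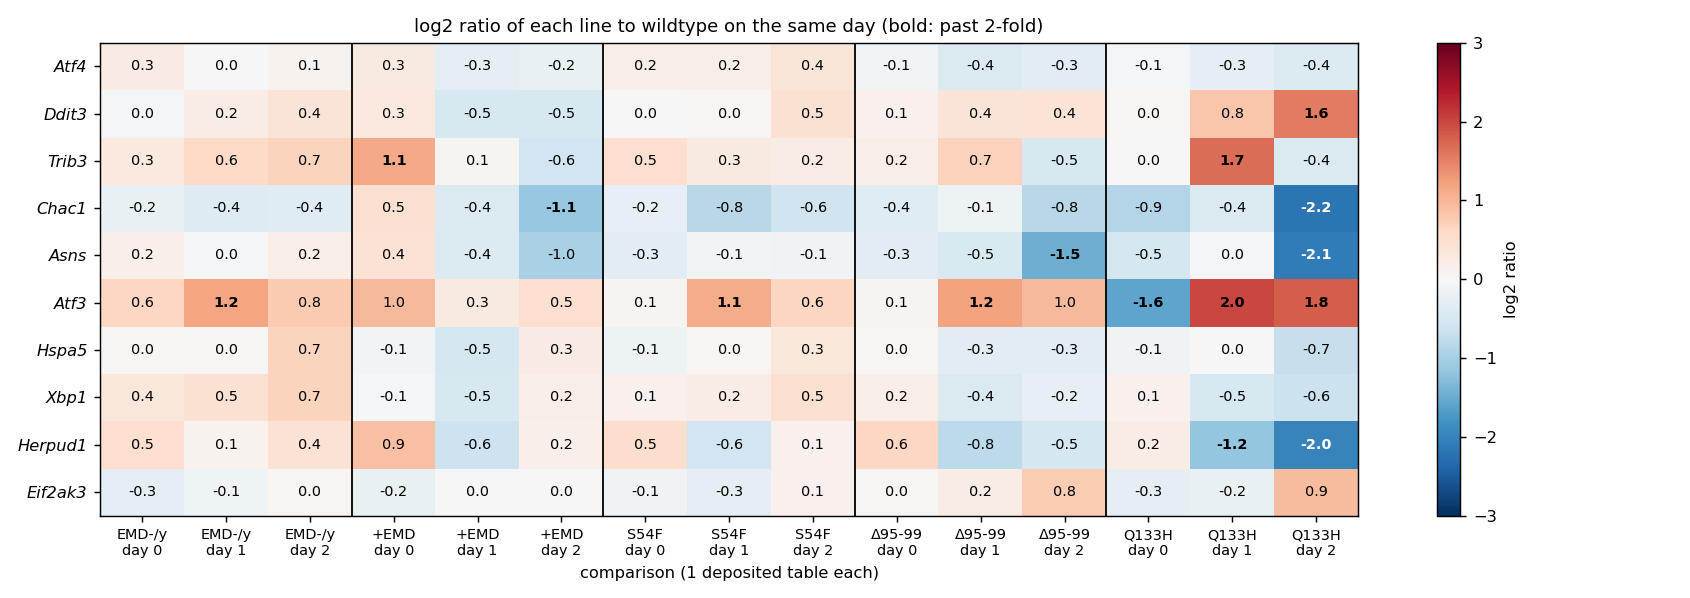
The log2 ratio of each line to wildtype on the same day (15 columns, 1 table each) for the 10 genes (rows), red where the line was higher and blue where it was lower, bold past 2-fold. The Q133H day 2 column holds 5 of the 15 bold cells.

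Which of these genes differed between a line and wildtype was asked first. In EMD-/y, 0 of 10 were past 2-fold on day 0, where 9.12% of all genes were, 1 (Atf3, higher) on day 1 beside 7.68% of all genes, and 0 on day 2 beside 7.98%. In +EMD, 1 (Trib3, higher) was past 2-fold on day 0 beside 17.3%, 0 on day 1 beside 20.1%, and 1 (Chac1, lower) on day 2 beside 18.8%. S54F had 0 on day 0 beside 12.3%, 1 (Atf3, higher) on day 1 beside 12.5%, and 0 on day 2 beside 11.1%. Δ95–99 had 0 on day 0 beside 12.7%, 1 (Atf3, higher) on day 1 beside 21.3%, and 1 (Asns, lower) on day 2 beside 22.5%. With 10 added to both values the day 1 calls of Atf3 in EMD-/y, S54F, and Δ95–99 were lost. In these 4 lines the count of the 10 was thus near the share of all genes or under it on each day. Q133H had 1 (Atf3, lower) on day 0 beside 15.1%, and 3 on day 1 (Trib3 and Atf3 higher, Herpud1 lower) beside 24.6%. On day 2 it had 5 of 10 (Ddit3 and Atf3 higher, Chac1, Asns, and Herpud1 lower) beside 33.9% of all genes. By direction this was 2 higher beside 18.2% and 3 lower beside 15.6% of all genes. Scaled to the sum of each group, it was 3 higher beside 23% and 3 lower beside 12.7%. With that scaling Δ95–99 on day 2 had 1 higher beside 16.7% and 1 lower beside 7.23%. The Q133H counts were thus near the shares of all genes on days 0 and 1 and somewhat above on day 2. The median log2 ratio of the 10 on day 2 was 0.41 in EMD-/y, -0.11 in +EMD, 0.28 in S54F, -0.34 in Δ95–99, and -0.54 in Q133H, while the median of all genes was within 0.02 of 0 in all 15 tables. These 5 comparisons of a day use 1 wildtype group.

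**Figure D3:**
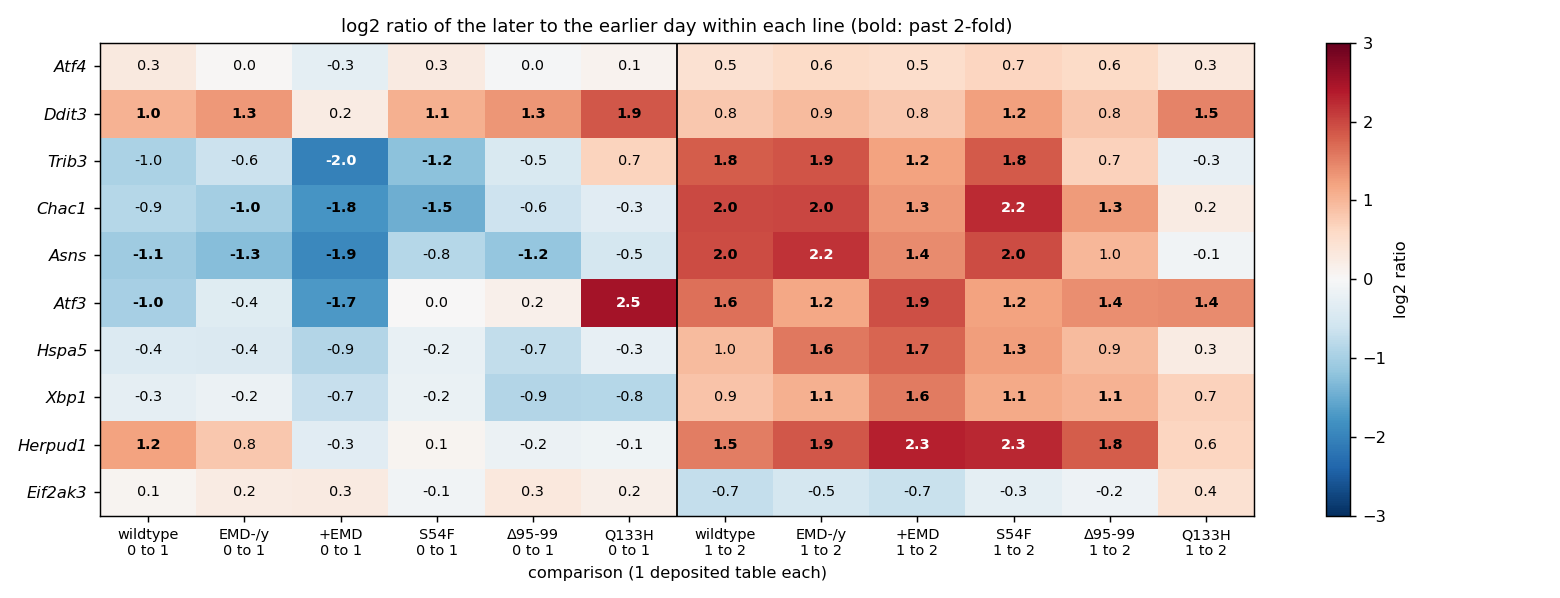
The log2 ratio of the later to the earlier day within each line for the 10 genes (rows), with the 6 lines from day 0 to 1 on the left and from day 1 to 2 on the right, red where the later day was higher, bold past 2-fold. Most cells on the right are red, and the Q133H column there has the lowest median (0.38).

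The second question was how the 10 genes moved within a line. From day 0 to day 1 the directions were mixed. Wildtype had 4 past 2-fold (Ddit3 and Herpud1 higher, Asns and Atf3 lower), beside 23.3% of all genes. Scaled to the sum of each group, 1 higher and 2 lower were left, and with 10 added to both values 1 and 1. EMD-/y had 3 (Ddit3 higher, Chac1 and Asns lower) beside 21.9%, and 1 higher and 1 lower with 10 added to both values. +EMD had 4, all lower (Trib3, Chac1, Asns, and Atf3), beside 17.8% past 2-fold and 7.17% downward. S54F had 3 (Ddit3 higher, Trib3 and Chac1 lower) beside 17.1%, and Δ95–99 had 2 (Ddit3 higher, Asns lower) beside 14.5%. Q133H had 2 (Ddit3 and Atf3), both higher, beside 12.6% past 2-fold and 5.95% upward.

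From day 1 to day 2 every one of the 10 that passed 2-fold was higher on day 2. Wildtype had 5 of 10 (Trib3, Chac1, Asns, Atf3, and Herpud1), where 20.3% of all genes were past 2-fold and 8.14% were so upward. EMD-/y had 7 (the same 5 with Hspa5 and Xbp1), beside 19.2% and 7.81% upward. +EMD had the same 7 as EMD-/y, beside 21.1% and 11.2% upward, and S54F had 8, these 7 and Ddit3, beside 21% and 9.54% upward. Δ95–99 had 4 (Chac1, Atf3, Xbp1, and Herpud1) beside 14.7% and 9.17% upward. Q133H had 2 (Ddit3 and Atf3) beside 11.1% and 6.55% upward. The median log2 ratio of the 10 was 1.25 in wildtype, 1.37 in EMD-/y, 1.36 in +EMD, 1.24 in S54F, 0.96 in Δ95–99, and 0.38 in Q133H. Outside Q133H, the share of the 10 that was past 2-fold upward was above that of all genes, from 4 of 10 beside 9.17% to 8 of 10 beside 9.54%.

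These counts depended on the scaling. Dividing each value by the sum of its group in the table lowered every log2 ratio of the step from day 1 to day 2 by 0.19 in wildtype, 0.24 in EMD-/y, 0.24 in +EMD, 0.27 in S54F, 0.14 in Δ95–99, and 0.02 in Q133H. The counts of the 10 upward were then 5 in wildtype beside 6.19% of all genes, 5 in EMD-/y beside 5.19%, 6 in +EMD beside 8.65%, 4 in S54F beside 6.7%, 3 in Δ95–99 beside 7.84%, and 2 in Q133H beside 6.3%, and 0 were downward. S54F lost the calls of Ddit3, Atf3, Hspa5, and Xbp1. The downward shares of all genes went from 12.2% to 15.9% in wildtype, from 11.4% to 16.3% in EMD-/y, from 9.85% to 15.8% in +EMD, from 11.4% to 17.4% in S54F, from 5.49% to 7.73% in Δ95–99, and from 4.54% to 4.7% in Q133H.

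In the Q133H line, 2 of the 10 genes were past 2-fold upward between day 1 and day 2, beside 6.55% of all genes. They were Ddit3, which went from 442 to 1239.6, and Atf3, which went from 102 to 275. Asns (from 1075 to 995), Trib3 (from 143 to 120.0), Chac1 (from 77.8 to 91.8), and Hspa5 (from 12408 to 14759.7) moved by log2 ratios of -0.11, -0.25, 0.24, and 0.25. The difference between the log2 ratio in Q133H and that in wildtype over this step was -2.08 for Asns, -2.08 for Trib3, -1.74 for Chac1, -0.89 for Herpud1, -0.71 for Hspa5, -0.22 for Atf3, 0.69 for Ddit3, and 1.15 for Eif2ak3. For the step from day 0 to day 1 it was 3.50 for Atf3, 1.64 for Trib3, and -1.35 for Herpud1. Δ95–99 lay between Q133H and wildtype over the later step for Asns (-0.98), Trib3 (-1.14), and Chac1 (-0.69), and +EMD had -0.54, -0.61, and -0.68 for the same genes. These differences were not tested, since the tables give no replicate values.

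Myogenic markers were also compared between the lines. The summed level of 8 of them (Myod1, Myf5, Des, Cdh15, Pax7, Myog, Myh3, and Ckm) on day 2 was 447290.0 in wildtype, 457936 in EMD-/y, 280834 in +EMD, 388873 in S54F, 201059 in Δ95–99, and 82397 in Q133H. All 8 were listed in all 18 groups, and the muscle label was met by Myod1 (6007 to 25092) and Des (9236 to 67690) in each group. Most of the wildtype sum was Myh3, the embryonic myosin heavy chain, which was 282176 in wildtype and 17533 in Q133H on day 2, and Ckm, the muscle creatine kinase, was 9462 and 879. Against wildtype on day 2, 6 of the 8 were past 2-fold lower in Q133H (Des, Cdh15, Pax7, Myog, Myh3, and Ckm) and 1 was higher, Myf5, an early myogenic factor, with 640.3 against 141 in wildtype. In Δ95–99, Myh3 and Ckm were lower, while Myf5 (1065 against 139 in wildtype) and Pax7, a satellite cell factor (957 against 54.4 in wildtype), were higher. Pax7 was also past 2-fold higher in EMD-/y, +EMD, and S54F, and Myf5 in +EMD and S54F, and Myh3 was lower in +EMD. The order of the lines by this sum on day 2 puts Δ95–99 and Q133H last, as does the median of the 10 genes. On day 1 the 2 orders differed. Q133H then had the lowest sum (25127, against 93247 in +EMD). The median of the 10 against wildtype was lowest in +EMD (-0.42, against -0.13 in Q133H). The 12 markers of fibroblasts, fat, blood, and endothelial cells summed to between 117 and 697 in every group, and on day 2 to 129 in wildtype and 624 in Q133H. Of the 6 with a value of at least 10 in either group of the Q133H table of day 2, 4 were past 2-fold higher than wildtype, namely Twist2 (393 against 24.1 in wildtype), Cd68 (106 against 24.6 in wildtype), Pdgfra (66.5 against 31.5 in wildtype), and Fabp4 (10.3 against 0.443 in wildtype), and Dpt was lower. Twist2 was also past 2-fold higher in +EMD, S54F, and Δ95–99, as was Dcn in S54F, and Pdgfra was lower in Δ95–99. Of the others, Lum, Adipoq, and Plin1 were at most 0.545 wherever listed and Ptprc at most 1.89, while Pecam1 and Cdh5 reached 12.6 and 10.9. The part of the markers in the stress gene values was not tested.

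**Figure D4:**
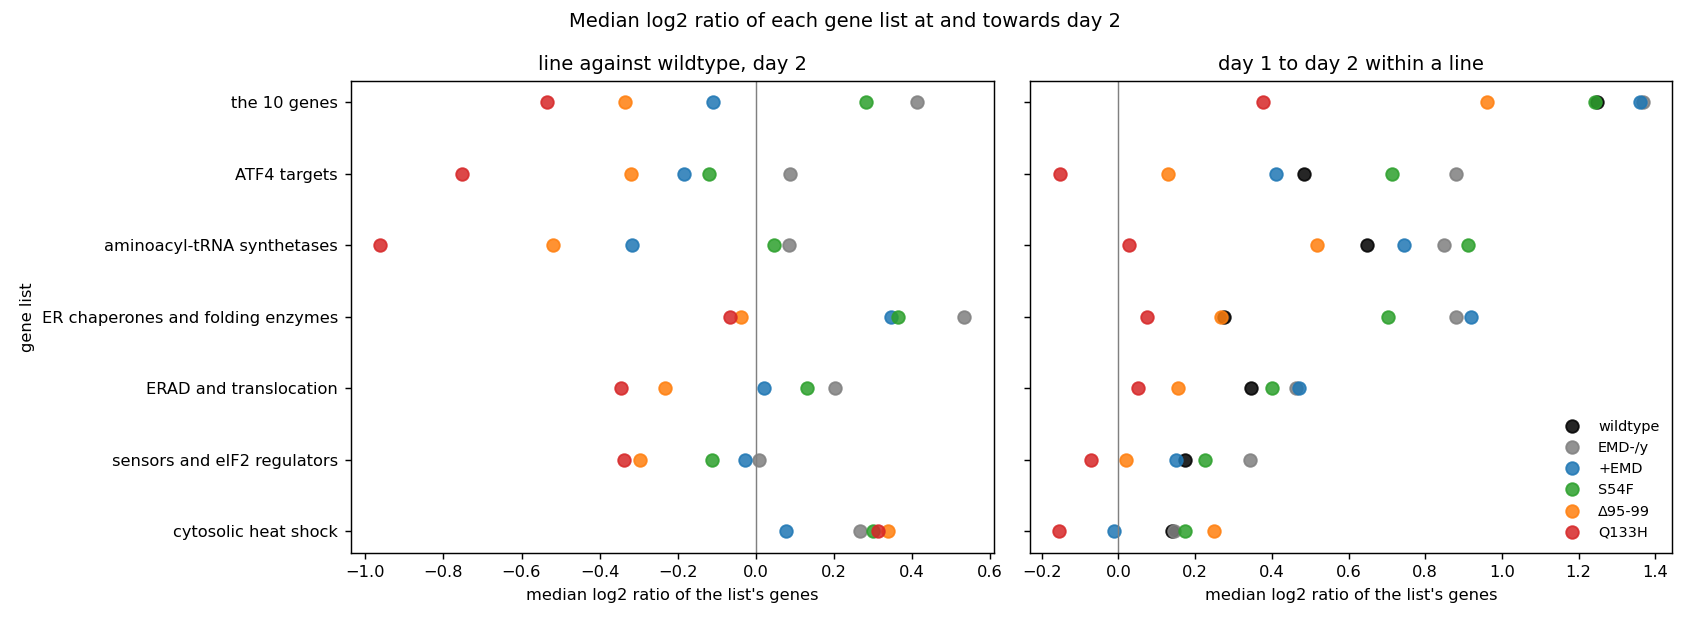
Median log2 ratio (horizontal) of the 10 genes and of 6 wider gene lists (rows), 1 point per line, for each line against wildtype on day 2 (left) and for day 1 to day 2 within each line (right). Q133H has the lowest median of the 10 genes, ATF4 targets, aminoacyl-tRNA synthetases, ER chaperones and folding enzymes, and ERAD and translocation in both panels as deposited. Scaled to the sum of each group, Δ95–99 is lower than Q133H for ER chaperones and folding enzymes on the left (0.15 against 0.19) and for ERAD and translocation on the right (0.01 against 0.03).

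Wider lists of the same pathways were counted the same way. Of 26 further ATF4 targets, the Q133H line on day 2 had 5 of 25 higher and 11 lower (median log2 ratio -0.75) past 2-fold against wildtype, beside the 33.9% of all genes. The 11 lower ones were Slc3a2, Slc7a5, and Slc6a9 of amino acid transport, Psat1, Phgdh, Mthfd2, and Aldh1l2 of serine and one-carbon metabolism, and Nupr1, Stc2, Fgf21, and Atf5. The 5 higher ones were Sesn2, Ddit4, Vldlr, Gdf15, and Cth. In the other lines the counts on day 2 were near the shares of all genes, with 2 of 26 higher and 0 lower in EMD-/y beside 7.98%, 2 and 3 of 25 in +EMD beside 18.8%, 1 and 1 of 25 in S54F beside 11.1%, and 3 and 4 of 25 in Δ95–99 beside 22.5%. Their median log2 ratios were 0.09, -0.18, -0.12, and -0.32. From day 1 to day 2, 11 of 26 were past 2-fold upward in EMD-/y beside 7.81% of all genes, 10 of 25 in S54F beside 9.54%, 9 of 25 in +EMD beside 11.2%, 6 of 25 in wildtype beside 8.14%, 5 of 25 in Δ95–99 beside 9.17%, and 1 of 24 in Q133H beside 6.55%. Downward there were 2 in EMD-/y (Ddit4 and Gdf15), 2 in S54F (Ddit4 and Cth), 3 in +EMD (Sesn2, Ddit4, and Cth), 4 in wildtype (Sesn2, Ddit4, Gdf15, and Cth), 1 in Δ95–99 (Cth), and 3 in Q133H (Phgdh, Shmt2, and Aldh1l2). Scaled to the sum of each group, the upward counts of this list were 8, 4, 4, 4, 5, and 1 in the same order of lines, and the downward ones 4, 2, 3, 4, 3, and 3, while Q133H against wildtype on day 2 had 5 higher and 8 lower. Over the 15 tables against wildtype, the highest medians were those of Vldlr, a lipoprotein receptor (1.34, range 0.31 to 1.90), and Gdf15, a stress-induced hormone (0.81), and the lowest those of Fgf21, another one (-1.43, range -7.72 to 1.79), and Nupr1 (-1.09). Over the 12 tables between days they were Stc2 (0.87) and Atf5 (0.78) at the top and Shmt2 (-0.73) and Slc1a5 (-0.69) at the bottom.

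The 12 aminoacyl-tRNA synthetases, which load amino acids onto tRNA and include known ATF4 targets, showed small ratios in most tables. On day 2 their median log2 ratio to wildtype was 0.09 in EMD-/y, -0.32 in +EMD, 0.05 in S54F, -0.52 in Δ95–99, and -0.96 in Q133H. The calls that day were those of Gars, Iars, and Lars in Q133H, all lower. This is 3 of 12, under the 33.9% of all genes past 2-fold but above the 15.6% that were lower. Scaled to the sum 1 was left, beside 12.7% lower. From day 1 to day 2 the median was 0.65 in wildtype, 0.85 in EMD-/y, 0.74 in +EMD, 0.91 in S54F, 0.52 in Δ95–99, and 0.03 in Q133H. Over the 15 tables the extremes were Aars (0.17) and Wars (0.14) above and Lars (-0.29) and Gars (-0.25) below, and over the 12 tables Sars (0.37) and Cars (0.24) above and Mars1 (-0.33) and Eprs (-0.21) below.

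Of 21 ER chaperones and folding enzymes, which work beside BiP, 9 were past 2-fold upward from day 1 to day 2 in EMD-/y, 10 in +EMD, 8 in S54F, 2 in wildtype, and 0 in Δ95–99 and Q133H. The shares of all genes upward were 7.81%, 11.2%, 9.54%, 8.14%, 9.17%, and 6.55% in the same order, so the wildtype count was near the share of all genes. Scaled to the sum the counts were 7, 8, 4, 1, 0, and 0. Pdia4, Pdia6, Dnajb9, Dnajb11, Hyou1, Sdf2l1, Manf, and Creld2 were past 2-fold in all 3 of EMD-/y, +EMD, and S54F. None of the 21 was past 2-fold downward over this step as deposited, and scaled to the sum 1 was in each of EMD-/y, +EMD, S54F, and wildtype. The medians were 0.88, 0.92, 0.70, 0.28, 0.27, and 0.08, in the same order of lines, so the wildtype median was near that of Δ95–99 for this list. Dnajc10, an ER disulfide reductase, was past 2-fold higher than wildtype in 10 of 15 tables (0.44 to 1.89). Next to it the highest median was that of Pdia3 (0.28), and the lowest were Fkbp2 (-0.23) and Dnajb9 (-0.22). Between days, Dnajb9 (0.81) and Sdf2l1 (0.53) were at the top and Ero1a (-0.36) and Txndc5 (-0.33) at the bottom.

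The 23 genes of ER-associated degradation and translocation showed less. Between day 1 and day 2, 3 were past 2-fold upward in EMD-/y, 5 in +EMD, 4 in S54F, 1 in wildtype, and 0 in Δ95–99 and Q133H, beside 7.81%, 11.2%, 9.54%, 8.14%, 9.17%, and 6.55% of all genes. Sel1l, Derl3, and Selenos were shared by the first 3 lines. Scaled to the sum the counts were 1, 2, 2, 1, 0, and 0. Against wildtype, Derl3 was past 2-fold lower in 10 of 15 tables (-3.94 to 0.33), and Edem3 had the next lowest median (-0.52). Edem1 (0.41) and Sec61b (0.30) had the highest. Between days the ends were Derl1 (0.71) and Edem3 (0.70), and Sec61a1 (-0.42) and Ssr1 (-0.35).

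Among 18 sensors and eIF2 regulators, Q133H on day 2 had 1 higher (Eif2ak4, the amino acid sensor GCN2) and 3 lower (Atf6, Eif2b3, and Eif2b4) than wildtype past 2-fold, which is 4 of 18 and under the 33.9% of all genes. Scaled to the sum, the 3 lower calls were lost. The other lines had at most 2. Eif2ak4 had the highest median over the 15 tables (0.74, range 0.31 to 1.27) and was above wildtype in all of them, followed by Mbtps2 (0.21), and Atf6 (-0.49) and Creb3l2 (-0.33) had the lowest. Between days Creb3 (0.74) and Atf6 (0.58) were highest and Creb3l1 (-0.79) and Eif2ak4 (-0.53) lowest. Of 11 cytosolic heat shock genes, which answer to misfolding outside the ER, Q133H on day 2 had 3 higher (Hspa1a, Hspa1b, and Dnajb1) and 1 lower (Hspb1), and Δ95–99 had 2 higher (Hspa1b and Dnajb1), which is 4 and 2 of 11 beside 33.9% and 22.5% of all genes, near these shares. Hspa8 was above wildtype in all 15 tables (0.48 to 1.20), with Hsph1 (0.41) next, and Hspa1a (-0.01) and Hsf1 (0.13) had the lowest medians. Between days the ends were Hspb1 (1.03) and Hsph1 (0.95), and Hspd1 (-0.18) and Hspa1b (-0.04). Hspa1a and Hspa1b are near-identical copies, so their shares of reads are uncertain.

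**Figure D5:**
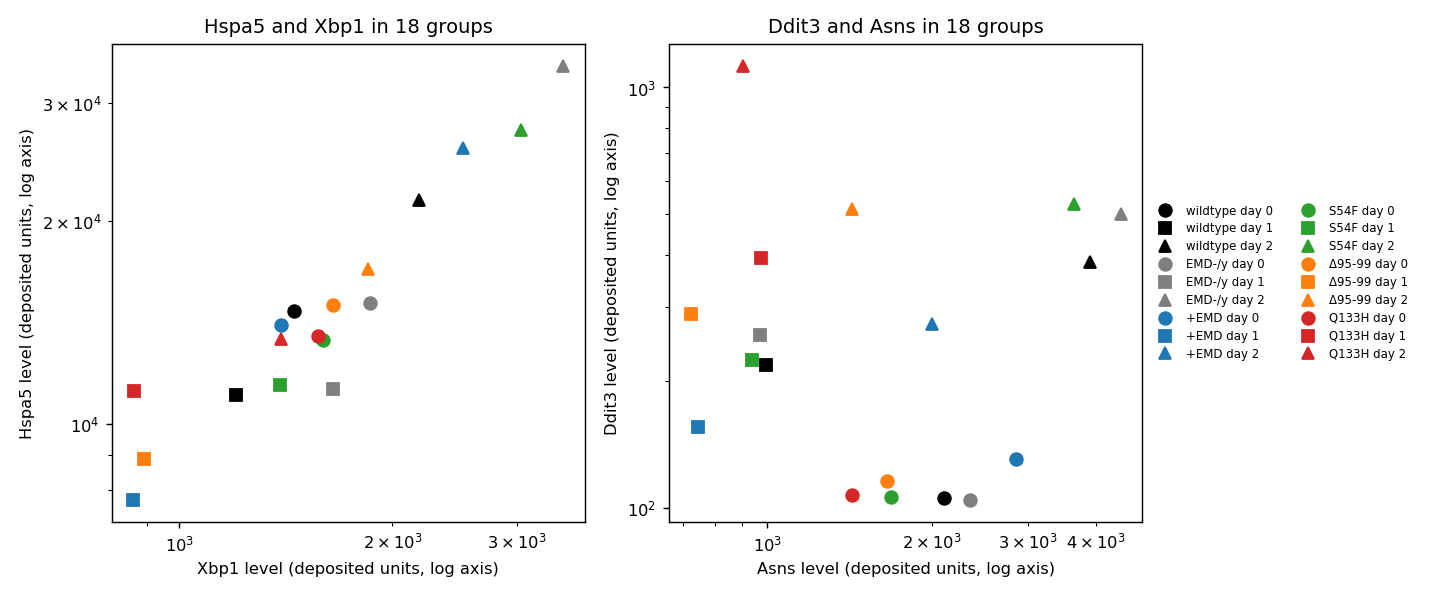
Hspa5 against Xbp1 (left) and Ddit3 against Asns (right), 1 point per group on log axes in deposited units on the common scale, with colours for lines and circles, squares, and triangles for days 0, 1, and 2. The left points follow a line (r = 0.943), while the right ones do not (r = -0.0023), with Q133H on day 2 at the top left.

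Likeness between genes was taken as Pearson's r of log2 level over the 18 groups, which share lines and days and are not independent, and is given as a description. Within the 10, the closest pairs were Hspa5 with Xbp1 (0.943) and Chac1 with Asns (0.915). Atf4 was closest to Herpud1 (0.865), Xbp1 (0.792), and Hspa5 (0.778). Its r was lower with Asns (0.651), Chac1 (0.588), Ddit3 (0.556), Trib3 (0.527), and Atf3 (0.526). Ddit3 was closest to Atf3 (0.729) and had an r near 0 with Asns (-0.0023). Eif2ak3 was negative with Asns (-0.776), Hspa5 (-0.745), and Xbp1 (-0.72).

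Among 12099 genes with a level of at least 50 in some group, the 3 most like Asns were Ndufs7 (0.98), Lars (0.957), Timm9 (0.953), and those most like Chac1 were Lars (0.929), Slain2 (0.903), Slc3a2 (0.901). Lars is the leucyl-tRNA synthetase and Slc3a2 a subunit of amino acid transporters, and both are on the lists above. For Hspa5 they were Hyou1 (0.961), Nars (0.95), Pdia6 (0.947), the first and last being ER folding genes. For Herpud1 they were Vps37c (0.981), Btbd1 (0.978), Coq9 (0.974), and for Xbp1 Morf4l2 (0.941), Trappc9 (0.938), Clint1 (0.931). Ddit3 was most like Akt1s1 (0.948), Atp6v1h (0.947), Lamtor3 (0.935), and Eif2ak3 most like Man2a1 (0.928), Osmr (0.908), Pnp (0.902). Trib3, with Slc25a33 (0.872), Spryd7 (0.86), Ddx47 (0.853), and Atf3, with Timp2 (0.846), Ndfip1 (0.736), Tmem229b (0.734), had the weakest matches.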

How the data were processed

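Poly-A RNA of 54 samples in 18 groups was sequenced on the DNBseq platform. According to the authors, reads were cleaned with SOAPnuke, mapped with HISAT2, and compared with DESeq2 on build mm10, with versions not given in the sources used here. The labels number 3 replicates per group, while the methods state 3 technical replicates for each of 2 biological ones, and which sample is which is not given. The signal values deposited by the authors are 1 normalized read count per gene and group in each of 27 tables, with 0 columns for single samples, and the depth of a sample is therefore unknown. The tables also hold the authors' own fold changes, p-values, q-values, and calls, which were not used. The deposited values are not plain means, since a group's value leaned toward the other group of its table, by 47.0% of the difference in ratio at values up to 1, by 7.05% at 4 to 16, and by 0.487% in the highest class. No value was 0.

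Ratios were taken within a table with no pseudocount. Tables were put on a common scale by least squares on genes with values over a minimum of 128 in both tables, and levels were averaged over a group's tables. The steps were tested on simulated data. Of 19653 genes, 17824 had a RefSeq symbol. The 10 genes, the lists, and the counts were chosen with earlier results of these data known. Named genes are the 10, the 2 highest and 2 lowest medians of each list over the tables with values of at least 10, the 3 genes most like each of the 10 (those of Atf4 are not reported here), and Emd; the members of a list past 2-fold are also named. Scaling, pseudocount, fold, and filter were varied. Python 3.11.15, numpy 2.4.6, and pandas 2.3.3 were used.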

Additional observations from a re-analysis of the deposited data

How the results depend on the processing

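The 10 genes give 30 ratios per line against wildtype and 20 per line between days, of which 1, 2, 1, 2, and 9 were past 2-fold against wildtype in EMD-/y, +EMD, S54F, Δ95–99, and Q133H, and 9, 10, 11, 11, 6, and 4 between days in wildtype and these 5 lines. At 1.5-fold the counts against wildtype were 7, 6, 4, 8, and 14, and those between days were 15 in wildtype, 13 in Δ95–99, and 8 in Q133H. At 3-fold they were 0 against wildtype in EMD-/y, +EMD, S54F, and Δ95–99, and 4, 4, 7, 4, 1, and 2 between days. With a pseudocount of 10, 3 of the 4 Atf3 calls against wildtype on day 1 were lost (that of Q133H was kept), which left 0 in EMD-/y, 0 in S54F, and 1 in Δ95–99. Scaling to the sum of each group gave 7 between days in S54F, with 4 in place of 8 from day 1 to day 2. Centring on the median of all genes and levels on the common scale left every count within 1.5 times. Over these 4 settings, no ratio of the 10 genes past 2-fold changed sign, and the largest shifts were 0.019, 0.096, 0.27, and 0.53 (log2) for centring, the common scale, the sum, and the pseudocount. The shares of all genes past 2-fold stayed within 1.5 times with no filter and without predicted genes. Scaling the wider lists to the sum was chosen after seeing the data.

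No paired analysis was possible because the tables hold only pooled values. Leaving out a replicate, a test, and an interval were not run for lack of values per sample.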
